A study of Danio rerio with 2 samples.

Results

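The *coch*-positive cells of the adult zebrafish jaw joint were 84 of the 3919 cells kept from the *trps1:eGFP*-enriched single-cell library, or 2.14% (95% Clopper-Pearson interval 1.71 to 2.65). A barcode was kept when it had 500 to 2000 detected genes and at most 5% of its unique molecular identifiers (UMIs, each a counted transcript molecule) on mitochondrial genes. A kept cell was counted as *coch*-positive with at least 2 UMIs of *coch* (LL0000005966) and fewer than 3 UMIs of the epithelial gene *epcam*. The 84 cells were thus selected on their measured *coch* counts, and the remaining 3835 kept cells of the same library served as the comparison. The working name of these cells, *coch*-positive connective tissue cells, rests on *coch* and *grem1a*, and is set against other markers further on.

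*coch* encodes cochlin, a secreted extracellular matrix protein best known from the inner ear, and *grem1a* encodes a gremlin, a secreted antagonist that binds bone morphogenetic proteins (BMPs) and keeps them from their receptors. The tissue around a joint holds several mesenchymal populations side by side: chondrocytes of the joint surface that secrete lubricin, ligament cells that deposit aligned collagen, osteoblasts on the bone, and fibroblasts and periosteal cells between them. These populations share many matrix genes, and they are told apart by the secreted factors, transcription factors and matrix proteins that each makes in excess.

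The library came from 50 pooled jaw joints, dissected from 3-month-old animals that carried both transgenes, *sox10:DsRed* and *trps1:eGFP*, and its cells were sorted as positive for *trps1:eGFP*. A second library from the same joints held cells sorted for *sox10:DsRed*. The joints were pooled before sorting and each sort gave 1 library, so there was no replicate and no difference was tested. Values are CPM, the UMIs of a gene summed over the cells of a set and scaled to the set's total, with exact Poisson intervals, and shares of cells have Clopper-Pearson intervals, all at 95% and for counting error only. The *coch*-positive cells held a median of 3956.5 UMIs (range 1156 to 8526) and the other kept cells a median of 3642 (925 to 16252), and 3 UMIs in the *coch*-positive cells correspond to 8.94 CPM, the level below which a gene without a UMI cannot be placed. None of the 84 barcodes was among the 16 that both libraries shared.

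The transcript of the transgene used for the sort was found in 32.1% of *coch*-positive cells and 43.1% of the other kept cells, at 116 CPM (interval 82.6 to 159) in *coch*-positive cells and 178 CPM in the others. *DsRed* had no UMI in the 84 cells, and *trps1* itself, a zinc finger transcription factor, had 3 UMIs. Both genes were so sparse in the other kept cells as well (0.890 CPM for *DsRed* and 13.7 CPM for *trps1*) that no difference was detectable at this depth. The 3 cells of the *sox10:DsRed*-enriched library that met the same rule, of 242 kept there, had 6, 3 and 4 UMIs of *coch*. Their depths were 2248, 5639 and 1895 UMIs. Together they had 5 UMIs of *DsRed*, none of *grem1a* and none of *mdka*, a gene high in the 84 cells and described further on.

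*coch* itself ranged widely among the cells it had selected. The lowest cell had 2 UMIs, the median cell 16.5 and the highest 162, and *coch* made up 0.0573% to 4.26% of a cell's UMIs, with a median of 0.458%. As many as 65 of the 84 cells had 6 UMIs or more and 40 had 20 or more. Only 5 cells stood at the limit with exactly 2 UMIs, while 78 kept cells just outside it had 1 UMI and were left with the comparison. Among the 350 kept cells with 3 or more *epcam* UMIs, none had 2 *coch* UMIs and 6 had a *coch* UMI (1.71%), against 2.07% of the other kept cells under that limit of *epcam*, so that a lone UMI was about as frequent in epithelial cells as elsewhere. *grem1a* (LL0000011702) was found in 21 of the 84 cells (25%) and in 2.40% of the other kept cells, at 119 CPM (85.1 to 162) in *coch*-positive cells and 10.2 CPM in the others. After every cell had been thinned to 1000 UMIs the shares were 7.14% and 0.809%, and in *epcam*-positive cells *grem1a* was found in 0.571%.

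Besides *coch*, genes higher in the *coch*-positive cells included midkine, clusterin and a group of less abundant genes for secreted proteins, transcription factors and enzymes. Some of them were also high in another cluster of the library, given further on. The 30 genes farthest above the other kept cells, among genes found in at least 25% of *coch*-positive cells, lay between 1.75 and 3.45 on the log2 scale with 10 CPM added to both sides. All 30 stayed at least 2-fold higher when the cell with the most UMIs of the gene was left out, and also when the comparison was confined to other kept cells under 3 *epcam* UMIs. Because the cells were chosen on *coch* in this same library, these values describe the chosen cells.

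**Figure D1:**
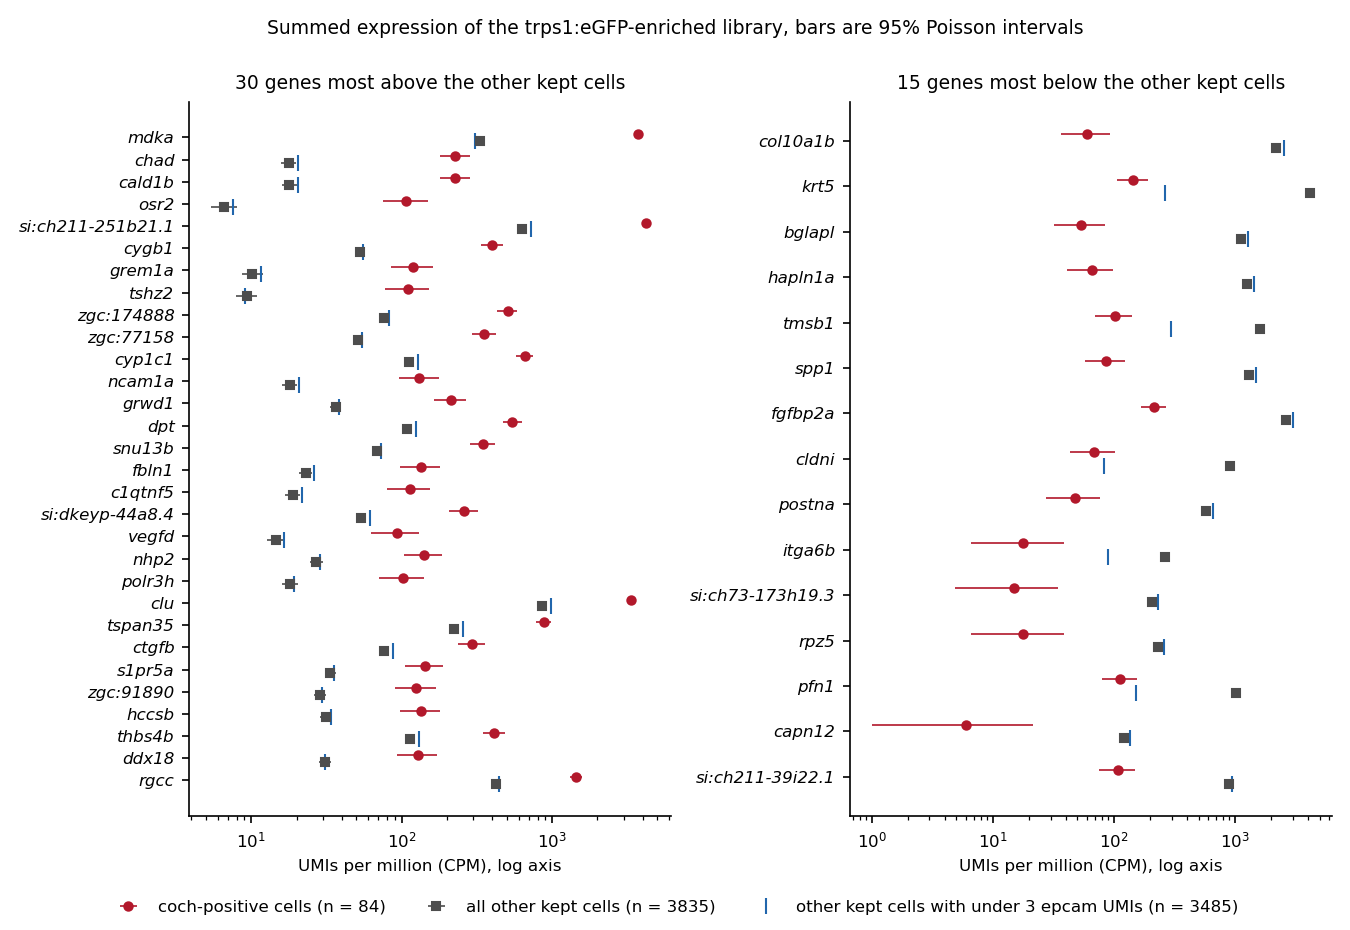
Summed expression (CPM, log axis) of the 30 genes farthest above and the 15 genes farthest below the other kept cells, for *coch*-positive cells (red circles, n = 84) and all other kept cells (grey squares, n = 3835), with 95% Poisson intervals; the blue tick is the level in other kept cells with fewer than 3 *epcam* UMIs. *mdka* had 3709 CPM in *coch*-positive cells and 330 CPM in the others, and for *krt5*, *cldni* and *pfn1* in the right panel the blue tick lies close to the red circle.

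*mdka* (LL0000018805), which encodes midkine, a heparin-binding growth factor, had the largest difference on the log2 scale with 10 CPM added among genes found in at least 25% of *coch*-positive cells. It ranged in *coch*-positive cells from 0 to 114 UMIs with a median of 6, and was found in 86.9% of them and in 36.2% of the other kept cells. Its level was 3709 CPM in *coch*-positive cells (3506 to 3921) and 330 CPM in the others, a ratio of 11.2 (10.6 to 12.0), and by the plain ratio *osr2*, *chad*, *cald1b*, *tshz2* and *grem1a* lay higher. *mdka* was also found in 56.3% of *epcam*-positive cells, at 477 CPM, so that its share of cells was high outside the group while its level was not. *si:ch211-251b21.1* (LL0000025837), a gene named only by its clone, reached 4213 CPM in *coch*-positive cells, the highest level of the 30, and 634 CPM in the others. It ranged from 0 to 82 UMIs in the 84 cells with a median of 14. *clu*, the extracellular chaperone clusterin, had 3373 CPM in *coch*-positive cells and 859 CPM in the others, and ranged from 0 to 104 UMIs with a median of 6. Each of these 3 genes was missing in at least 1 of the 84 cells, so none marked them all.

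Genes of lower level among the 30, of which *grem1a* is 1, included transcription factors, matrix proteins and enzymes. *osr2*, an odd-skipped zinc finger transcription factor with roles in joint and palate development, had 36 UMIs in 27 of the 84 cells (32.1%) and was found in 2.11% of the other kept cells. Its level was 107 CPM (75.1 to 148) in *coch*-positive cells and 6.61 CPM in the others, the largest ratio of the 30 at 16.2 (10.8 to 23.9). *chad*, the leucine-rich matrix protein chondroadherin, had 226 CPM in *coch*-positive cells and 17.7 CPM in the others, and *cald1b*, a caldesmon that binds actin, had 226 CPM and 17.9 CPM. *tshz2*, a teashirt zinc finger transcription factor, had 110 CPM in *coch*-positive cells and 9.34 CPM in the others. *cygb1*, a cytoglobin, had 399 CPM and 52.9 CPM, and *cyp1c1*, a cytochrome P450 enzyme, had 655 CPM and 111 CPM. Secreted matrix proteins among the 30 were dermatopontin (*dpt*, 545 CPM in *coch*-positive cells and 109 CPM in the others), fibulin 1 (*fbln1*, 134 and 22.9 CPM) and the thrombospondin *thbs4b* (411 and 113 CPM).

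Other genes of the 30 have membrane, enzyme or unassigned roles. The tetraspanin gene *tspan35* had 882 CPM (784 to 988) in *coch*-positive cells and 224 CPM in the others. The clone-named genes *zgc:174888* and *zgc:77158* had 507 and 355 CPM in *coch*-positive cells and 76.8 and 51.6 CPM in the others. The neural cell adhesion molecule gene *ncam1a* had 131 CPM (95.3 to 176) in *coch*-positive cells and 18.05 CPM in the others, and the sphingosine-1-phosphate receptor gene *s1pr5a* had 143 and 33.6 CPM. *zgc:91890* had 125 CPM in *coch*-positive cells and 28.5 CPM in the others, with 38.1% of its UMIs in 1 cell, the largest such share among the 30.

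A median *coch*-positive cell had a UMI of 15 of these 30 genes (range 4 to 28), against 4 (range 0 to 19) for the other kept cells. Thinned to 1000 UMIs, the median was 8 (range 1 to 14) in *coch*-positive cells and 2 (0 to 16) in the others, so that the ranges overlapped at either depth. The 30 genes had been picked on the same cells, and these counts are again a description.

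To place single genes in their pathways, 44 lists of genes were counted against all genes of the library. Of the 15080 genes with at least 10 UMIs over the kept cells, 397 were at least 2-fold higher in *coch*-positive cells (2.63%) and 606 were at least 2-fold lower (4.02%), with a median log2 difference of -0.12 over all of them. Over the 1579 genes of at least 50 CPM that median was -0.055, and a list's median is best read against these values. Both shares are over genes of any level, and none was computed for the 1579. With 10 CPM added, a gene under 10 CPM in the other kept cells cannot be 2-fold lower. A list of more abundant genes is thus not matched to these shares.

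BMP pathway genes passed 2-fold in few cases. Of 21 BMP antagonists, 2 were at least 2-fold higher (*grem1a* and *nog3*, a noggin, with 38.7 CPM in *coch*-positive cells and 13.4 CPM in the others) and 2 at least 2-fold lower, and without its highest cell *nog3* no longer passed. The lower ones were *fsta*, a follistatin with 1 UMI in *coch*-positive cells against 23.6 CPM in the others, and the sclerostin gene *sost*, which had no UMI in the 84 cells against 36.6 CPM, at least 4.09-fold lower with 3 UMIs over the 84 cells as the floor. None of the 24 BMP receptors and target genes passed 2-fold in either direction. The targets *id1*, *id2a* and *id3*, which BMP signalling is known to induce, had 545, 730 and 819 CPM in *coch*-positive cells and 779, 668 and 782 CPM in the others.

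Of 23 TGF-beta and activin genes, 7 were at least 2-fold higher and 1 lower, with a median log2 difference of 0.07. Over all genes, not matched by level, the shares were 2.63% and 4.02%. *inhbaa*, an activin subunit, had 423 CPM (356 to 499) in *coch*-positive cells and 139 CPM in the others, and *inhbb* had 41.7 CPM and 4.64 CPM. The matricellular genes *ctgfa* and *ctgfb*, known TGF-beta targets, had 748 and 292 CPM in *coch*-positive cells, and 318 and 75.7 CPM in the others. The receptor gene *tgfbr2a* had 53.6 CPM in *coch*-positive cells and 15.8 CPM in the others, and the transcriptional corepressor gene *tgif1* had 602 CPM and 252 CPM. Without the highest cell of each gene, 5 of the 7 stayed at least 2-fold higher.

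Retinoic acid and Notch genes differed in single members. *cyp26b1*, which degrades retinoic acid, had 539 CPM (464 to 624) in 63.1% of *coch*-positive cells and 159 CPM in 22.5% of the other kept cells. *aldh1a3*, which makes it, had 17.9 CPM (6.56 to 38.9) in *coch*-positive cells and 157 CPM in the others. Of 21 retinoic acid genes tested, 2 were at least 2-fold higher and 2 at least 2-fold lower. *hey1* and *hey2*, transcriptional repressors that Notch is known to induce, had 71.5 and 74.5 CPM in *coch*-positive cells and 17.7 and 8.71 CPM in the others, while *her6*, of the same family, had 1761 and 2287 CPM. Of 19 Notch genes tested 2 were higher and 1, the ligand gene *jag1b*, lower.

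Growth factors and chemokines included further genes that few other cells expressed. The chemokine gene *cxcl12b* had 32 UMIs in 16 of the 84 *coch*-positive cells, or 95.3 CPM (65.2 to 135), and 3.56 CPM in 0.887% of the other kept cells. Its paralog *cxcl12a* was abundant in both, with 1514 CPM in *coch*-positive cells and 1233 CPM in the others. The lymphatic growth factor gene *vegfd* had 92.4 CPM in *coch*-positive cells and 14.6 CPM in the others, and the endothelin receptor gene *ednraa* had 262 CPM (210 to 323) and 80.2 CPM. Among Wnt modulators *nkd1*, an inhibitor of the pathway, had 68.5 CPM in *coch*-positive cells and 14.7 CPM in the others, and the secreted antagonist gene *sfrp2* had 206 CPM and 443 CPM.

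Transcription factors of jaw patterning and skeletal development were at least 2-fold higher no more often than genes at large, with 2 of 96 (*osr2* and *foxp2*), and 8 were lower. Without its highest cell *foxp2* no longer passed 2-fold, nor did it against other kept cells under 3 *epcam* UMIs. The lower ones included *osr1*, the close relative of *osr2*, with 11.9 CPM in *coch*-positive cells and 70.8 CPM in the others, *rfx2* with 5.96 and 79.3 CPM, and *glis1b* with 5.96 and 67.1 CPM.

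**Figure D2:**
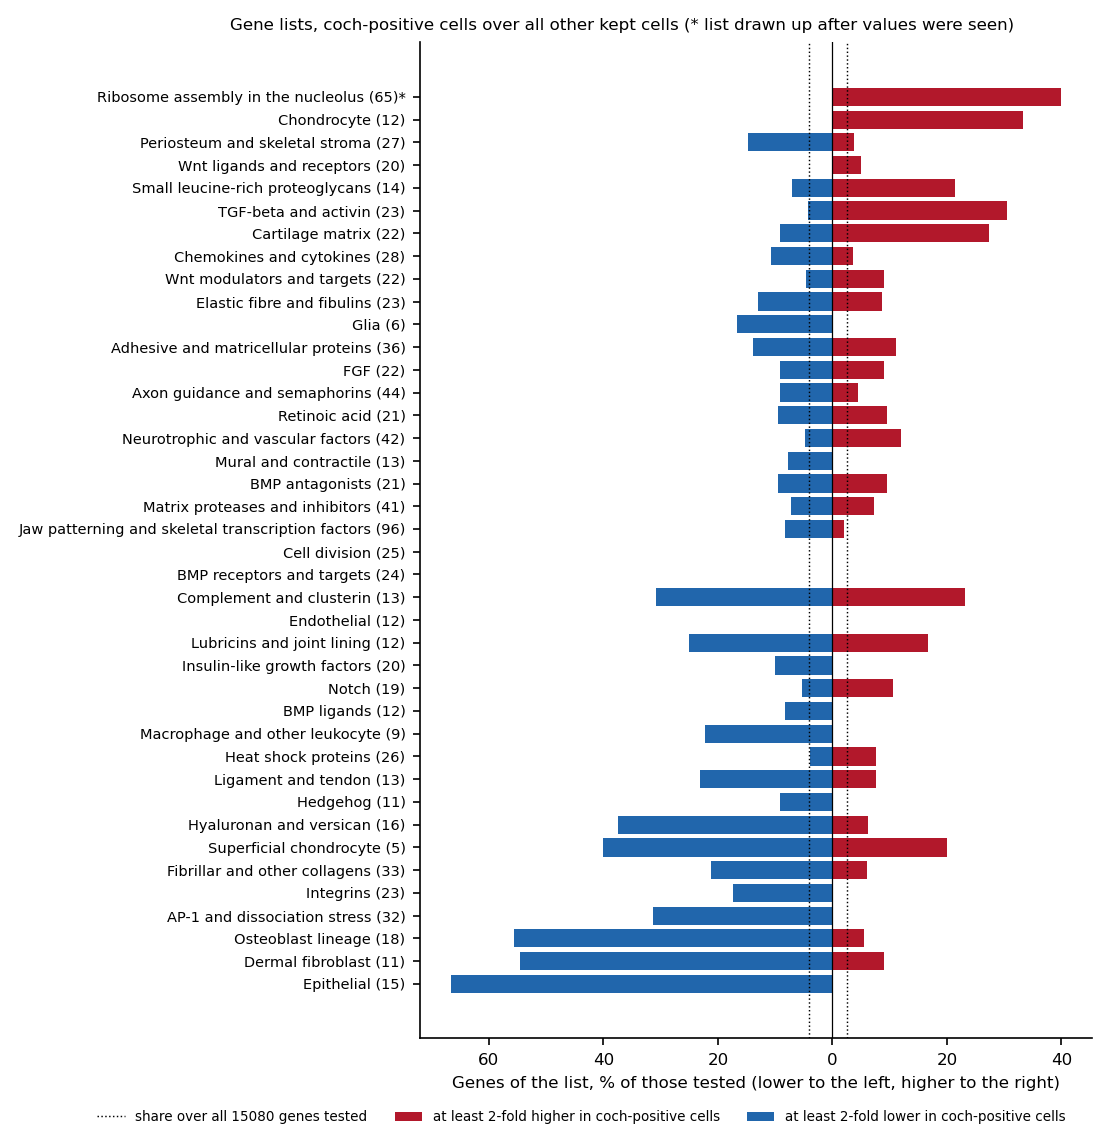
Share of the tested genes of each list (number tested in parentheses) that were at least 2-fold higher (red, to the right) or lower (blue, to the left) in *coch*-positive cells than in all other kept cells, for lists with at least 5 genes tested. Dotted lines mark 2.63% and 4.02%, the shares over all 15080 genes, and 3 of the 4 higher genes in the chondrocyte list rest mostly on the same cell.

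Genes for ribosome assembly in the nucleolus were higher as a group. The list of 65 such genes was drawn up after their values had been seen, and so only describes what was noticed. Of these genes 26 were at least 2-fold higher in *coch*-positive cells (2.63% of all genes were, not matched by level) and none was lower (4.02%). Their median log2 difference was 0.82, and 25 of the 26 stayed higher without the cell with the most UMIs of the gene. Their summed level was 7735 CPM (7440 to 8038) in *coch*-positive cells and 2761 CPM (2735 to 2787) in the others, and the median cell gave them 0.668% of its UMIs in *coch*-positive cells and 0.196% in the others. *npm1a*, the nucleolar chaperone nucleophosmin, had 1505 CPM in *coch*-positive cells and 456 CPM in the others. *grwd1*, which serves in large subunit assembly, had 212 and 36.5 CPM, and *snu13b* and *nhp2*, proteins of small nucleolar ribonucleoprotein particles, had 346 and 140 CPM in *coch*-positive cells and 68.3 and 27.1 CPM in the others. The 83 genes for cytosolic ribosomal proteins, also summed after values had been seen, made up 29.3% of the UMIs of the median *coch*-positive cell (quartiles 25.4 and 34.8) and 21.3% of the median other cell (17.3 and 26.3). Of these, 81 of 83 were above 0 on the log2 scale while 2 were at least 2-fold higher. The mitochondrial chaperone genes *hspd1* and *hspe1* had 253 and 590 CPM in *coch*-positive cells and 83.4 and 231 CPM in the others. Of 25 cell division genes none passed 2-fold in either direction, and they summed to 1088 CPM in *coch*-positive cells and 1249 CPM in the others.

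Genes that respond early to stress or dissociation were also at other levels in these cells. Of 32 genes in the list of AP-1 factors and dissociation stress, none was at least 2-fold higher and 10 were at least 2-fold lower in *coch*-positive cells, among them *fosab* (2077 CPM in *coch*-positive cells and 5966 CPM in the others), *jun* (760 and 1877 CPM), *egr1* (50.7 and 214 CPM) and *btg2* (462 and 1082 CPM). Over all genes 2.63% were higher and 4.02% lower, shares not matched to the level of these genes. The list summed to 17338 CPM in *coch*-positive cells and 29235 CPM in the others. Its part in the other differences was not tested.

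Of 33 collagen genes, 7 were at least 2-fold lower in *coch*-positive cells and 2 were higher, with a median log2 difference of -0.53. The shares over all genes, not matched by level, were 4.02% lower and 2.63% higher. The 3 type I collagen chain genes, the main collagen of skin, bone, ligament and fibroblasts, summed to 7023 CPM (6742 to 7312) in *coch*-positive cells and 15088 CPM (15028 to 15149) in the others. The 2 that were higher were *col8a1b* (143 CPM in *coch*-positive cells and 27.5 CPM in the others) and *col5a3a* (41.7 and 2.86 CPM). Of these, *col8a1b* was also a leading gene of another cluster, given further on. Other matrix genes went either way. The leucine-rich proteoglycan genes *chad*, *ogna* and *bgnb* had 226, 167 and 176 CPM in *coch*-positive cells and 17.7, 67.0 and 62.2 CPM in the others, while *bgna*, the paralog of *bgnb*, had 14.9 CPM and 176 CPM. Without the highest cell of each gene, 2 of the 3 higher ones, *chad* among them, stayed at least 2-fold higher. *mgp*, an inhibitor of mineralization, had 959 CPM in *coch*-positive cells and 378 CPM in the others, with 25.5% of its 322 UMIs in 1 cell. Without that cell *mgp* no longer passed 2-fold. *mmp2*, a gelatinase, had 1502 CPM and 746 CPM. The testican gene *spock1* had 68.5 CPM (43.4 to 103) in *coch*-positive cells and 6.67 CPM in the others. *postna* and *postnb*, periostins of the periosteum and ligament, had 47.7 and 143 CPM in *coch*-positive cells and 574 and 603 CPM in the others.

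Hyaluronan and dermal fibroblast genes were more often lower than higher. Over all genes, not matched by level, 4.02% were lower and 2.63% higher. Of 16 hyaluronan and versican genes 6 were at least 2-fold lower and 1 was higher, with a median log2 difference of -0.51. *tnfaip6*, which modifies hyaluronan, had 492 CPM in *coch*-positive cells and 1010 CPM in the others, and the hyaluronidase gene *hyal4* had 53.6 CPM and 9.40 CPM. Of 11 dermal fibroblast genes 6 were lower and 1, *dpt*, was higher. The prostaglandin D synthase genes *ptgdsb.1* and *ptgdsb.2* had 1889 and 1746 CPM in *coch*-positive cells and 4821 and 5912 CPM in the others, and *pah*, phenylalanine hydroxylase, had 50.7 CPM and 354 CPM.

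The 15 genes farthest below the other kept cells, among genes found in at least 25% of those, lay between -4.98 and -2.94 on the log2 scale, and several were genes of epithelial cells or osteoblasts. *krt5*, *cldni* and *pfn1* had 143, 68.5 and 113 CPM in *coch*-positive cells and 4139, 907 and 1018 CPM in all other kept cells. Against other kept cells under 3 *epcam* UMIs, which had 266, 82.6 and 153 CPM of them, these 3 genes no longer passed 2-fold, and the other 12 did. *col10a1b*, *bglapl* and *spp1*, genes of mineralizing osteoblasts, had 59.6, 53.6 and 86.4 CPM in *coch*-positive cells and 2188, 1116 and 1299 CPM in the others. Of the UMIs of these 3 genes in the other kept cells, 77.5%, 61.2% and 25.4% lay in the 117 *ifitm5*-positive cells described further on. The shares of cells with a UMI were closer, at 22.6%, 16.7% and 27.4% of *coch*-positive cells and 26.7%, 26.6% and 31.3% of the other kept cells. *hapln1a*, the link protein that joins proteoglycans to hyaluronan, had 65.5 CPM (41.1 to 99.2) in 17.9% of *coch*-positive cells and 1256 CPM in 57.6% of the other kept cells, 19.2-fold lower (12.6 to 30.6). *fgfbp2a*, a carrier protein of fibroblast growth factors, had 215 CPM (168 to 270) in *coch*-positive cells and 2641 CPM in the others, 12.3-fold lower (9.77 to 15.7). In *epcam*-positive cells *hapln1a* and *fgfbp2a* had 81.7 and 194 CPM, near their *coch*-positive levels. Among the neighbouring sets described further on, *hapln1a* was at least 2-fold lower only than in *thbs4a*-positive cells. There *fgfbp2a* was at least 2-fold lower only than in *ifitm5*-positive cells.

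Markers of other cell types were counted in the *coch*-positive cells to see which they carried. Of the defining chondrocyte genes, *col2a1a*, *acana* and *sox10* had no UMI in the 84 cells, against 5.02, 0.763 and 0.890 CPM in the others, all below the 8.94 CPM that the 84 cells can place. Of 12 chondrocyte genes tested, 4 were at least 2-fold higher, but *matn1*, *mia* and *snorc* had 15 of 16, 12 of 13 and 6 of 7 of their UMIs in 1 cell. The same cell, which lay outside the leading cluster described further on, held 12 of the 27 UMIs of *cnmd*, chondromodulin. Without the highest cell only *cnmd* of these stayed so. With all 84 cells included, *cnmd* had 80.4 CPM in *coch*-positive cells and 7.88 CPM in the others. Of 22 cartilage matrix genes tested 6 were at least 2-fold higher and 2 lower, with a median log2 difference of 0.04, and 3 of the 6 (*chad*, *cnmd* and *ucmaa*) stayed higher without the highest cell. The skeletal muscle genes, all 14, had no UMI, the endothelial list had a UMI in 7 cells with *pecam1* and *kdrl* at 0, and the leukocyte list had a UMI in 9 cells with *ptprc* and *mpeg1.1* at 0. These 4 genes were also below 8.94 CPM in the other kept cells (0.572, 2.61, 0.0635 and 0.127 CPM), so that their zeros place nothing. Of the osteoblast genes, *sp7*, *entpd5a* and *panx3* were at 0, against 1.59, 22.1 and 10.8 CPM in the others, which makes *entpd5a* at least 2.47-fold and *panx3* at least 1.21-fold lower and leaves *sp7* below the limit. Of 18 osteoblast genes tested, 10 were at least 2-fold lower (4.02% of all genes were, not matched by level) and 1 (*phex*) higher (2.63%). The genes *twist1a*, *prrx1a* and *cxcl12a*, transcription factors and a chemokine of mesenchymal cells, had 331, 241 and 1514 CPM in *coch*-positive cells, and 51.7, 21.6 and 109 CPM in *epcam*-positive cells. Those 3 mesenchymal genes lay above their epithelial level, but they are a choice from many and do not settle what the cells are. Of 27 periosteum and skeletal stroma genes tested, 1 (*cxcl12b*) was at least 2-fold higher in *coch*-positive cells than in the other kept cells. In that list 4 were at least 2-fold lower (*postna*, *postnb*, *s100a10b* and *thy1*). Type I collagen, whose summed level over 62 of the 84 cells was not above its epithelial level, is taken up again with the clusters.

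Neighbouring populations of the joint, each chosen by at least 2 UMIs of 1 gene among kept cells under 3 *epcam* and under 2 *coch* UMIs, were set beside the *coch*-positive cells: 60 cells with *prg4b* (lubricin of the joint surface), 76 with *thbs4a* (a thrombospondin of ligament) and 117 with *ifitm5* (an osteoblast membrane protein), leaving out 2 cells that met more than 1 of these rules. In turn, each of those marker genes had 1 UMI in the 84 *coch*-positive cells. Of the 30 genes, which had been chosen for being high in *coch*-positive cells, 26 were at least 2-fold higher in *coch*-positive cells than in *prg4b*-positive cells (6.74% of all genes were), 27 than in *thbs4a*-positive cells (5.05%) and 28 than in *ifitm5*-positive cells (8.46%). Of the 15 lowest genes, 7 were at least 2-fold lower in *coch*-positive cells than in *prg4b*-positive cells (11.3% of all genes were), 7 than in *thbs4a*-positive cells (5.31%) and 6 than in *ifitm5*-positive cells (2.52%). Against *ifitm5*-positive cells 8 of the 15 were higher in *coch*-positive cells, 2 of them at least 2-fold. Against *thbs4a*-positive cells 3 were higher, and against *prg4b*-positive cells 0. *col10a1b* had 59.6 CPM in *coch*-positive cells, against 90.02, 70.25 and 31767 CPM in the *prg4b*-, *thbs4a*- and *ifitm5*-positive cells, so that only the last level lay more than 2-fold away. *si:ch211-251b21.1* had 4213 CPM in *coch*-positive cells, against 47.4, 115 and 64.3 CPM in the *prg4b*-, *thbs4a*- and *ifitm5*-positive cells, and *cald1b* had 226 CPM, against 0, 3.19 and 1.19 CPM. *osr2* had 107 CPM in *coch*-positive cells, against 0, 3.19 and 4.76 CPM in those sets. Those sets cover only part of the joint, and *si:ch211-251b21.1*, *cyp1c1* and *cygb1* were also leading genes of another cluster, given further on.

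Some of the 30 genes were less than 2-fold higher than in a neighbouring set. *clu* had 3373 CPM in *coch*-positive cells and 2004 CPM in *prg4b*-positive cells, and *rgcc*, a regulator of the cell cycle, had 1451 CPM in *coch*-positive cells, against 1815 CPM in *prg4b*-positive and 1177 CPM in *ifitm5*-positive cells. *ctgfb* had 292 CPM in *coch*-positive cells, against 573 CPM in *prg4b*-positive and 182 CPM in *thbs4a*-positive cells, and *dpt* had 545 CPM, against 327 CPM in *ifitm5*-positive cells. *thbs4b* had 411 CPM (345 to 486) in *coch*-positive cells and 1213 CPM in *thbs4a*-positive cells, the only 1 of the 30 at least 2-fold lower than in any of these sets. *c1qtnf5*, a secreted C1q-related protein, had 113 CPM in *coch*-positive cells, against 147 CPM in *prg4b*-positive and 121 CPM in *thbs4a*-positive cells. Over the 15080 genes, the Pearson correlation of log2 levels with the *coch*-positive cells was 0.891 for *thbs4a*-positive, 0.874 for *ifitm5*-positive, 0.810 for *prg4b*-positive and 0.782 for *epcam*-positive cells. For all other kept cells together it was 0.919, above each of these sets. These values are across genes of 1 library, and the sets differ in summed UMIs, which limits how high each could be.

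To see whether cells chosen on *coch* lay together when neither marker was used, the kept cells under 3 *epcam* UMIs were clustered without *coch* and *grem1a*. Of the 84 cells, 62 (73.8%, 63.1 to 82.8) fell into 1 of 15 clusters, where they were 56.9% of its 109 cells. The other 22 were spread over 7 clusters, 11 of them in a cluster of 286 cells. Leading genes of that cluster, those farthest above the other clustered cells, included *col8a1b* and *ogna*. Their levels were not split between the 62 and the 22. A cluster of 222 cells, with 4 of the 22, had *si:ch211-251b21.1*, *cyp1c1* and *cygb1* among its leading genes, beside *ecrg4a*, *fgl1* and *pcm1*. Clusters were formed on most of the genes described here, so the following levels show how the 84 cells divide and carry no test.

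**Figure D3:**
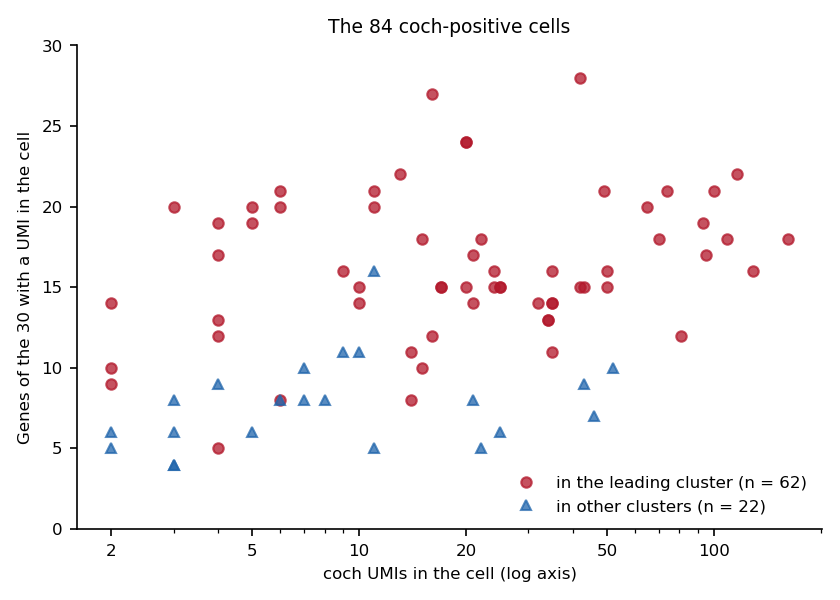
Number of the 30 genes with a UMI in each *coch*-positive cell against its *coch* UMIs (log axis), for the 62 cells in the leading cluster (red circles) and the 22 in other clusters (blue triangles). The 62 cells had a median of 16 of the 30 genes and the 22 a median of 8, and cells of both kinds occur at low and at high *coch* counts.

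The 62 and the 22 cells differed in most of the 30 genes. The 62 cells had a median of 16 of the 30 genes (9 when thinned) and the 22 a median of 8 (3 when thinned), although the 22 had more UMIs per cell (median 5105, against 3720.5 in the 62). Compared with the 3438 remaining cells under 3 *epcam* UMIs outside the leading cluster, 30 of the 30 genes were at least 2-fold higher in the 62 cells (3.73% of all genes were) and 8 of 30 in the 22 cells (3.81%). With the cell richest in each gene left out, 30 stayed so in the 62 cells and 6 in the 22 cells. The 62 are most of the cells on which the 30 genes were picked. Their count, and its distance from that of the 22, follows largely from that choice and is no result. *si:ch211-251b21.1* had 5921 CPM (5612 to 6242) in the 62 cells, 377 CPM (268 to 516) in the 22 cells (205 CPM without the highest cell) and 680 CPM in the remaining cells. *clu* had 4513, 812 and 940 CPM in the same order, and *inhbaa* had 599, 29.0 and 156 CPM, where the 22 cells had 3 UMIs. *vegfd* and *hey2* had 133 and 108 CPM in the 62 cells and no UMI in the 22 cells, and *cxcl12b* had 31 of its 32 UMIs in the 62 cells.

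*coch* was present in both kinds by the rule, with a median of 20.5 UMIs (2 to 162) in the 62 cells and 7.5 (2 to 52) in the 22, and with 8943 CPM and 2931 CPM. The 8 genes at least 2-fold higher in the 22 cells as well were *mdka*, *chad*, *cald1b*, *cygb1*, *grem1a*, *cyp1c1*, *ncam1a* and *ctgfb*, of which *cygb1* and *cyp1c1* no longer passed without their highest cell. *mdka* had 4560 CPM in the 62 cells and 1799 CPM (1550 to 2077) in the 22, against 283 CPM in the remaining cells. A single cell held 114 of the 186 *mdka* UMIs of the 22 cells, and without it their level was 751 CPM. *ctgfb* had 288 CPM in the 62 cells and 300 CPM in the 22, against 87.1 CPM in the remaining cells, and 194 CPM in the 22 without the highest cell. *ncam1a* had 146 CPM in the 62 cells and 96.7 CPM in the 22, against 19.7 CPM in the remaining cells. *grem1a* was found in 27.4% of the 62 cells and 18.2% of the 22, with overlapping intervals of its level (94.2 to 195 CPM and 33.4 to 152 CPM), and 5 of its 8 UMIs in the 22 lay in 1 cell, without which their level was 30.6 CPM.

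Type I collagen divided the cells the other way. Its 3 chain genes summed to 2730 CPM (2522 to 2951) in the 62 cells and 16665 CPM (15887 to 17471) in the 22 cells, against 17085 CPM in the remaining cells and 3119 CPM in *epcam*-positive cells. In the 62 cells the level of this collagen was no higher than in *epcam*-positive cells of the same library, and a *col1a2* UMI in 91.9% of them is to be read beside 91.1% of *epcam*-positive cells. These shares were not matched for depth, with a median of 3720.5 UMIs in the 62 cells and 6148 in *epcam*-positive cells. The mesenchymal genes *twist1a*, *prrx1a* and *cxcl12a* had 224, 293 and 1158 CPM in the 62 cells and 571, 126 and 2312 CPM in the 22, against 392, 251 and 1413 CPM in the remaining cells, all above the *epcam*-positive level given earlier. The proteoglycan gene *dcn*, decorin, had 379 CPM in the 62 cells and 1373 CPM in the 22, against 991 CPM in the remaining cells. *tnmd*, the tendon protein tenomodulin, had 38.8 CPM in the 62 cells and 251 CPM (164 to 368) in the 22, or 162 CPM without the highest cell. *ucmaa*, a matrix protein of cartilage, had 2 UMIs in the 62 cells and 90 in the 22 (870 CPM, or 678 CPM without the highest cell). The immediate early gene *fosab* had 1391 CPM in the 62 cells and 3617 CPM in the 22, against 6582 CPM in the remaining cells. The summed ribosome assembly genes had 9749 CPM in the 62 cells and 3211 CPM in the 22, against 2867 CPM in the remaining cells.

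The leading cluster also held 47 cells under the limit of 2 *coch* UMIs, 39 with none and 8 with 1. Their median depth was 2668 UMIs, and 27 of the 30 genes were at least 2-fold higher in them than in the remaining cells (4.4% of all genes were), the exceptions being *ctgfb*, *thbs4b* and *rgcc*. Without the highest cell of each gene 24 stayed so. *si:ch211-251b21.1* had 5921 CPM in the 62 *coch*-positive cells of the cluster and 4508 CPM in these 47, *clu* had 4513 and 4758 CPM, and *cald1b* had 293 and 318 CPM. *grem1a* had 138 CPM (94.2 to 195) in the 62 cells and 257 CPM (182 to 353) in the 47. *cygb1* had 525 CPM and 1124 CPM. The gene *fgfbp2a* had 250 CPM (190 to 323) in the 62 cells and 2423 CPM (2179 to 2688) in the 47 (1842 CPM without the highest cell), although it was found in 51.6% and 51.1% of them.

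**Figure D4:**
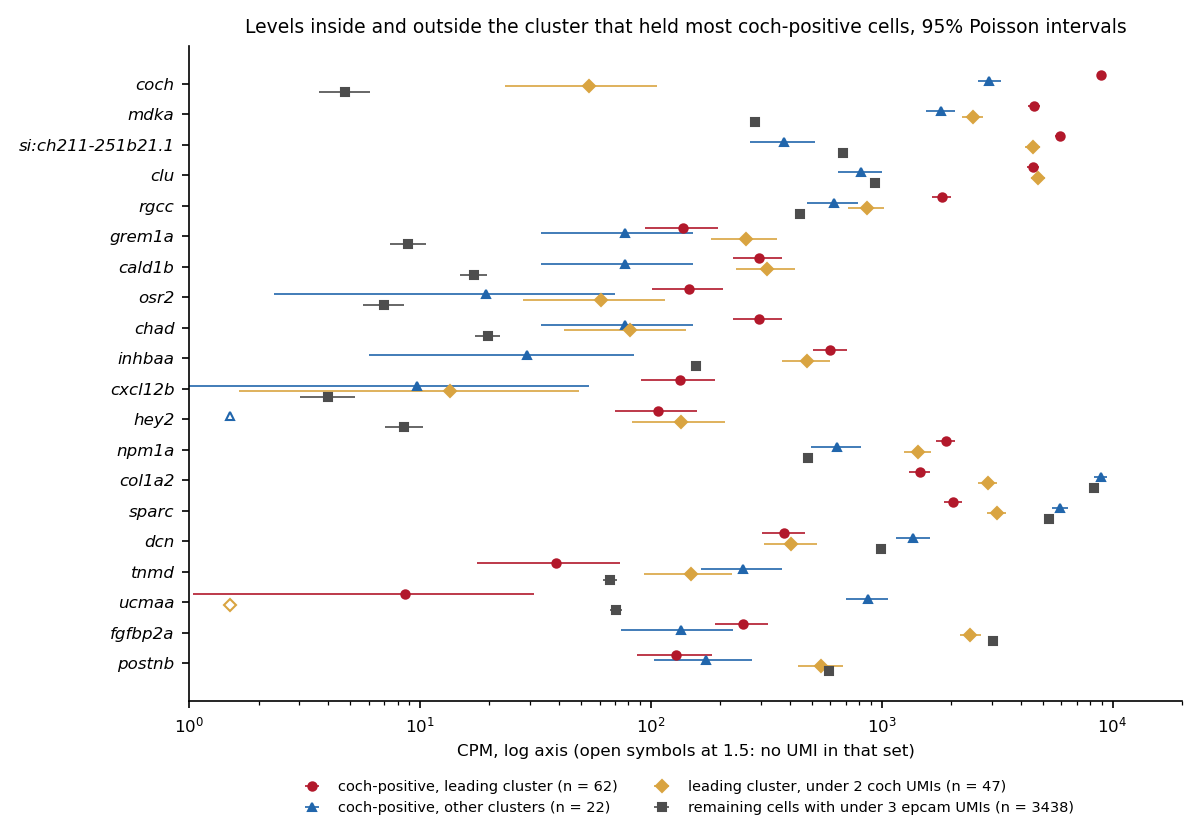
Levels (CPM, log axis, 95% Poisson intervals) of 20 genes in *coch*-positive cells inside (red circles, n = 62) and outside (blue triangles, n = 22) the leading cluster, in cells of that cluster under 2 *coch* UMIs (yellow diamonds, n = 47) and in the remaining cells under 3 *epcam* UMIs (grey squares, n = 3438). For *si:ch211-251b21.1* and *clu* the red and yellow symbols lie together and the blue ones near the grey, and for *col1a2* the blue lie with the grey.

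Levels were last read by the number of *coch* UMIs in a cell, among cells under 3 *epcam* UMIs. Over cells without *coch*, 5 of the 30 genes were at least 2-fold higher in the 72 cells with 1 UMI (0.564% of all genes were), 27 in the 14 cells with 3 to 5 (9.76%) and 30 in the 65 cells with 6 or more (2.63%). Of the 72 cells, 8 lay in the leading cluster, and their part in the levels of the 72 was not tested. The 14 and the 65 cells are most of the cells on which the 30 genes were picked, so their counts are fixed by that choice and are no result. *mdka* had 304 CPM in cells without *coch*, 468 CPM with 1 UMI, 2326 CPM (1926 to 2786) with 3 to 5 and 4084 CPM (3849 to 4330) with 6 or more. *clu* had 975, 1308, 3450 and 3405 CPM in the same classes. *fgfbp2a* had 3023 CPM in cells without *coch*, 3075 CPM with 1 UMI, 237 CPM with 3 to 5 and 200 CPM (151 to 260) with 6 or more. The 5 cells with exactly 2 UMIs held 9709 UMIs together, where 3 UMIs are 309 CPM, so that genes below that level could not be placed there. Among abundant genes, *si:ch211-251b21.1* had 2781 CPM (1833 to 4046) in these 5 cells, against 718 CPM in cells without *coch*, and *rgcc* had 2575 CPM (1666 to 3801), against 440.5 CPM. *clu* had 2060 CPM (1258 to 3181) in the 5 cells and *tspan35* 1030 CPM (494 to 1894), against 975 and 255 CPM in cells without *coch*, while *mdka* had 3 UMIs in 2 of the 5 cells.

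**Figure D5:**
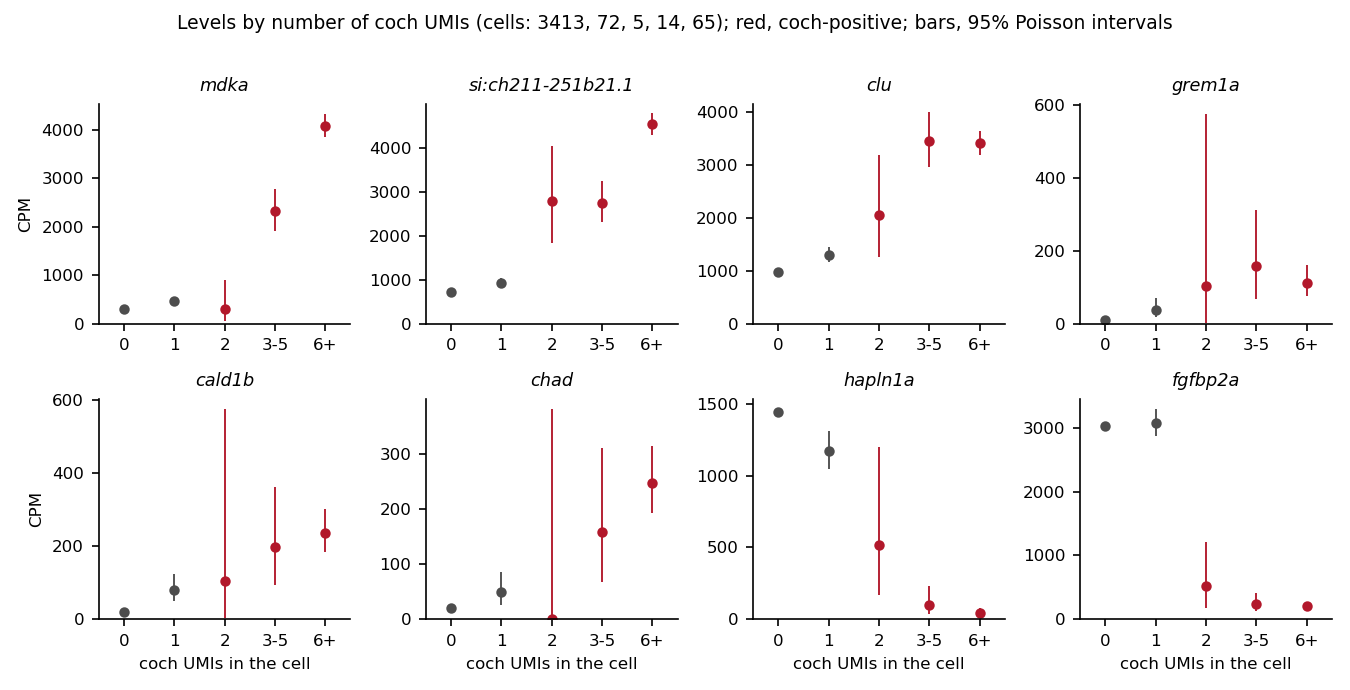
Levels (CPM, linear axes from 0, 95% Poisson intervals) of 8 genes in cells with 0, 1, 2, 3 to 5 and 6 or more *coch* UMIs, grey outside and red inside the limit that defines *coch*-positive cells. *mdka* has 304 and 468 CPM at 0 and 1 UMI and 2326 and 4084 CPM at 3 to 5 and 6 or more, *fgfbp2a* runs the other way, and the class of 2 UMIs holds 5 cells with wide intervals.

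*grem1a* divided the 84 cells less than the clusters did in *mdka*, *clu* and *si:ch211-251b21.1*. The 21 cells with a *grem1a* UMI had a median of 4978 UMIs and the 63 without one a median of 3719, so that depth differed with this split. *coch* had 5383 CPM (4936 to 5859) in cells with *grem1a* and 7810 CPM (7458 to 8175) in cells without it. *mdka* had 4487 CPM in cells with *grem1a* and 3382 CPM in cells without it, and *clu* had 5222 CPM and 2595 CPM. *si:ch211-251b21.1* had 4588 CPM in cells with *grem1a* and 4055 CPM in cells without it.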

How the data were processed

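Sorted cells of 50 pooled jaw joints were run on 10x 3' chips, and the authors' deposited raw UMI counts, made with Cell Ranger 3.0.0 on GRCz11 with a revised annotation and the GFP and DsRed sequences added (submitters' processing notes and study methods), were read as 36355 genes by 4876 barcodes (17424489 UMIs) for the *trps1:eGFP*-enriched library and 462 barcodes for the other. Barcodes with 500 to 2000 genes and at most 5% mitochondrial UMIs (12 genes with the prefix mt-) were kept (80.4%). The upper limit was the only step against doublets, and no doublet caller was run. Counts were summed over cells, scaled to CPM and compared as log2 with 10 CPM added, over genes with at least 10 UMIs. No test was run, since each sort gave 1 library. Shares were also computed after thinning to 1000 UMIs (seed 1). Clusters were made with Seurat 5.3.0 (R 4.3.3) on 1998 variable features without *coch* and *grem1a*, regression on mitochondrial share, 38 components and resolution 0.9. Tables were made with Python 3.11.15, numpy 2.4.6, scipy 1.17.1, pandas 2.3.3 and matplotlib 3.10.9. The fold calculation was tried on simulated cells drawn from 1 profile, in which only genes of at least 50 CPM were changed. That trial does not cover changes in genes of lower level or a comparison set of mixed cells.

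The genes named are the 30 highest and 15 lowest log2 folds among genes in at least 25% of *coch*-positive cells (highest) or of the other kept cells (lowest), where *coch*, *epcam* and mitochondrial genes were left out. Also named are *coch*, *epcam*, the transgenes, *trps1* and *grem1a* (1 of the 30), and from 44 lists (1033 of 1066 genes found) those past 2-fold, the most abundant and the defining markers. The members and lists were chosen with earlier results of these data known. The ribosome assembly and ribosomal protein lists, the subsets by cluster and the genes outside these rules were chosen after values were seen. Alternatives were other *coch*, *epcam*, gene and mitochondrial limits, thinning, 1 CPM added, means over cells, another comparison set, leaving out the deepest 5% of cells, no filter on genes and other cluster settings. Leaving out the highest cell within the subsets was chosen after seeing the data. Gene coordinates were not used here.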

Additional observations from a re-analysis of the deposited data

Results flagged for a closer look

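The limits on genes and mitochondrial RNA left out 13 barcodes of the *trps1:eGFP*-enriched library with at least 2 *coch* UMIs. No comparison above uses these barcodes, and their number was above the 3 set as the limit for a closer look. Of these, 10 had fewer than 500 genes and 3 had more than 2000, and none was over the mitochondrial limit. They had 535 to 14835 UMIs (median 1273) and 2 to 85 *coch* UMIs (median 5). *mdka* was found in 11 of the 13, at 5688 CPM, *si:ch211-251b21.1* in 11 at 3708 CPM, *clu* in 8 at 2310 CPM and *grem1a* in 2 at 38.8 CPM.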

How the results depend on the processing

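No paired analysis was possible because the result comes from no test and each sort gave 1 library. With at least 1 *coch* UMI the number of *coch*-positive cells was 156, and 167 genes were at least 2-fold higher and 227 lower, with *spp1* reversed in direction (1.25 on the log2 scale). The 72 cells with 1 *coch* UMI, which this setting adds, had 1699 UMIs of *spp1* (6458 CPM), against 29 UMIs in the 84 cells. The cause of the level in the 72 cells was not tested. Thinned to 1000 UMIs the counts of genes were 684 higher and 1434 lower, and the share of *coch*-positive cells with *grem1a* was 7.14%. With 1 CPM added in place of 10 they were 1629 higher and 5179 lower, with the median over all genes at -0.55. Under the other alternatives the cells numbered 71 to 96, the genes 359 to 459 higher and 529 to 693 lower, and the share in the leading cluster was 73.8% to 78.6%. The 30 genes stayed at least 2-fold higher under each of the 10 alternatives that recompute them, except *zgc:91890* and *thbs4b* after thinning. The 15 genes stayed at least 2-fold lower except *krt5*, *cldni* and *pfn1* against cells under 3 *epcam* UMIs, and *spp1*, *fgfbp2a* and *rpz5* with at least 1 *coch* UMI. With 335628 UMIs in all, the 84 cells place no gene below 8.94 CPM.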

Other observations

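Within the leading cluster, the 62 *coch*-positive cells and the 47 cells under 2 *coch* UMIs differed in genes not described so far, given as values for cells that were clustered on such genes. *ca6*, a secreted carbonic anhydrase, had 620 CPM in the 62 cells and 196 CPM in the 47, and was found in 75.8% and 21.3% of them. *npb*, a neuropeptide gene, had 327 CPM in the 62 cells and 67.7 CPM in the 47. In the other direction, *crip1*, a LIM domain protein gene, had 198 CPM in the 62 cells and 1036 CPM in the 47. *pmp22b*, a membrane protein gene, had 775 CPM and 2951 CPM, and the annexin gene *anxa2a* had 413 CPM and 1476 CPM. The 62 cells had a median of 3720.5 UMIs and the 47 a median of 2668, and the part of depth in these values was not tested.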
